A study of Homo sapiens with 6 samples.

Results

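The 10 genes described here encode the major heterogeneous nuclear ribonucleoproteins (hnRNPs): HNRNPA1, HNRNPA2B1, HNRNPC, HNRNPD, HNRNPDL, HNRNPH1, HNRNPK, HNRNPL, HNRNPM and HNRNPU. They were chosen by symbol from the 58302 genes of the deposited table, each symbol named 1 row, and all 10 passed the filter on low counts. RNA was sequenced from MDA-MB-231-DR, a resistant derivative of MDA-MB-231 (an established triple-negative breast cancer line), which was maintained with a low concentration of doxorubicin according to the methods. The comparison was between 3 control libraries and 3 libraries of cells treated with cyperotundone (CYT), a compound from sedge, and it asked which transcripts differed after treatment. The dose of CYT, the treatment time and any vehicle in the control are not given in the sources used here for these libraries. The titles of the samples name MDA-MB-231-DR, whereas their cell line field reads MDA-MB-231, and the titles were followed. Whether the sequenced line is a clone is not stated. The statistics section of the methods speaks in general of independent experiments and does not name the sequenced libraries, so the p-values measure the spread between these libraries, which may be technical.

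hnRNPs coat newly made RNA in the nucleus and take part in splice site choice, mRNA export, stability and translation. Most of them bind RNA through RNA recognition motifs, whereas HNRNPK binds through KH domains and HNRNPU through a glycine-rich region, and several shuttle between the nucleus and the cytoplasm. Cells hold them at high levels, and several are known to regulate the splicing of their own transcripts.

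Summed gene counts were 14050849 to 17770102 per control library and 13056270 to 14106017 per CYT library. CYT replicate 2 stood apart from the rest of its group, with correlations across genes (log2 CPM) of 0.914 and 0.913 with CYT replicates 1 and 3, which correlated with each other at 0.976. VIM, CD44, AXL and CAV1, which this mesenchymal-like line expresses, had control means of 2459, 139, 818 and 250 CPM (counts scaled to a common library size), and VIM (log2 fold change -1.30, adjusted p = 0.00535) and AXL (-0.82, adjusted p = 0.0444) were lower after CYT treatment in edgeR's quasi-likelihood test. The luminal markers ESR1, PGR and EPCAM had at most 4, 3 and 12 counts in any library, and GATA3 had a control mean of 4.62 CPM. Differences in cell number and in RNA per cell cannot be told apart in such bulk libraries.

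Of the 10 hnRNP genes, 3 fell after CYT treatment and none rose: HNRNPD to 24.4%, HNRNPDL to 25.0% and HNRNPL to 46.8% of the control mean. A gene was called when its p from edgeR's quasi-likelihood test, adjusted by the Benjamini-Hochberg method over the 15572 genes tested, was under 0.05. The 3 of 10 genes called lower stand against 12.9% of all tested genes, the 3 of 10 called in either direction against 28.6%, and the absence of a gene called higher against 15.7%. All 3 also had an absolute log2 fold change over 1, against 12.2% of all tested genes called lower with such a change. HNRNPL was near this cut, with -0.94 under upper-quartile normalization and -0.99 among genes averaging 5 CPM or more. At an unadjusted p under 0.05 the same test gave 4 genes, all lower, with HNRNPA1 added, against 19.4% of all tested genes, and DESeq2 called the same 4 lower and none higher, against 15.1% called lower. Without CYT replicate 2, edgeR called 5 of the 10 genes lower, with HNRNPA1 and HNRNPA2B1 added, and the share of all tested genes called lower was then 17%. In 5 of the 10 genes (HNRNPD, HNRNPDL, HNRNPL, HNRNPM and HNRNPU) every CYT library lay below every control library on TMM-normalized CPM, against 22.7% of all tested genes. In none did every CYT library lie above every control library, against 23.4%. When scaled by the summed gene counts alone, HNRNPM overlapped between the groups. The log2 fold change was negative in 9 of the 10 genes, among them HNRNPH1, whose sign turned under upper-quartile normalization and among genes averaging 5 CPM or more, with a median of -0.60 beside 0.0064 over all tested genes. Together the 10 genes took 0.251% ± 0.0195 (SD, n = 3) of all counts in control and 0.184% ± 0.0398 in CYT libraries, without overlap between the groups. The exact permutation test of this difference gave a two-sided p = 0.1, the smallest that 3 libraries against 3 allow.

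**Figure D1:**
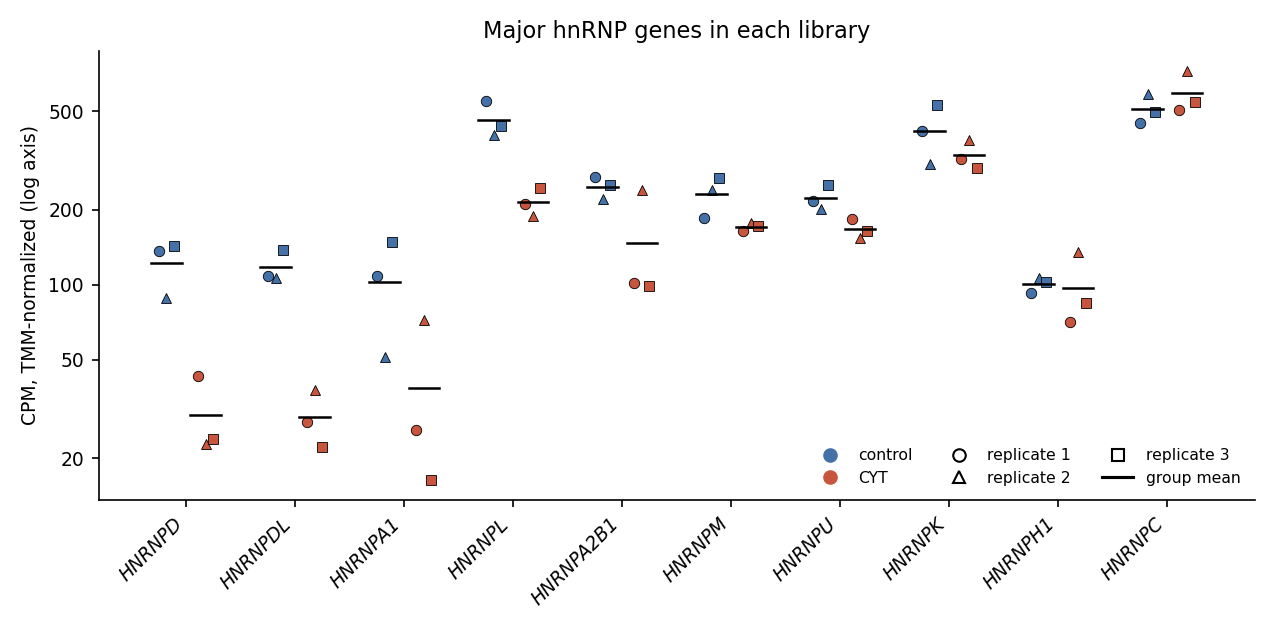
Normalized level of each hnRNP gene (CPM, TMM-normalized, log axis) in each library, with control in blue, CYT in red, symbols for the replicate number and bars for the group mean. At this scaling HNRNPD, HNRNPDL, HNRNPL, HNRNPM and HNRNPU show no overlap between the groups, though HNRNPM overlaps when scaled by the summed gene counts alone. CYT replicate 2 is the highest CYT library for HNRNPA1, HNRNPA2B1, HNRNPC, HNRNPDL, HNRNPH1, HNRNPK and HNRNPM.

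HNRNPD and HNRNPDL are related proteins that bind AU-rich elements. HNRNPD, also called AUF1, is known for regulating the decay of mRNAs with such elements, and HNRNPDL, the hnRNP D-like protein, takes part in transcription and alternative splicing. The deposited table places both genes on the minus strand of chromosome 4 (hg38), HNRNPD at chr4:82352498-82374503 and HNRNPDL at chr4:82422564-82430408. HNRNPD had 137, 88.2 and 143 CPM in control replicates 1 to 3 and 42.9, 22.9 and 24.0 CPM in CYT replicates 1 to 3. The lowest control library was thus above the highest CYT library, and the log2 fold change was -2.04 (standard error of the fit, SE, 0.37, edgeR adjusted p = 0.00362). HNRNPDL had 108, 107 and 137 CPM in control and 28.1, 37.9 and 22.2 CPM in CYT libraries. Its groups were also separate, with less spread within control, and the log2 fold change was -2.0 (SE 0.32, edgeR adjusted p = 0.00229). These levels rest on 1657 to 2210 counts per control library and 280 to 608 per CYT library over both genes. Within a library, the log2 ratio of HNRNPD to HNRNPDL counts averaged 0.041 ± 0.31 (SD, n = 3) in control and -0.0025 ± 0.67 in CYT libraries. This difference of -0.044 was within the spread between replicates (exact permutation test, two-sided p = 1.0, adjusted p = 1.0 over the 2 ratios computed). The ratio varied among the CYT libraries, from -0.72 in replicate 2, which had the lowest HNRNPD and the highest HNRNPDL, to 0.61 in replicate 1.

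HNRNPA1 and HNRNPA2B1, the core A/B proteins, bind exonic and intronic silencers, and they are best known for opposing SR proteins in splice site choice. HNRNPA1 lies on the plus strand at chr12:54280193-54287088 and HNRNPA2B1 on the minus strand at chr7:26189927-26201529. As deposited, HNRNPA1 had 109, 51.4 and 148 CPM in control and 25.9, 72.5 and 16.4 CPM in CYT libraries. CYT replicate 2 lay above control replicate 2, so the groups overlapped, and HNRNPA1 was not called (log2 fold change -1.42, SE 0.57, edgeR adjusted p = 0.0905). Without CYT replicate 2 the log2 fold change was -2.28 (edgeR adjusted p = 0.0053), and HNRNPA1 was also called with DESeq2 (adjusted p = 0.0343) and without the filter on low counts (edgeR adjusted p = 0.0309).

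Most reads assigned to HNRNPA1-like sequence were counted at other loci. The table held 75 rows named as HNRNPA1 pseudogenes, of which 29 had counts, and these rows took 77.0% to 85.6% of the summed counts of HNRNPA1 and its copies per control library and 57.8% to 80.2% per CYT library. HNRNPA1P7 (chr18:32412214-32413176, processed pseudogene), HNRNPA1P48 (chr16:51645756-51647132, annotated as protein coding) and HNRNPA1P10 (chr19:11666069-11667030, processed pseudogene) held nearly all of them. Aligned to the HNRNPA1 coding sequence of 960 bases (GENCODE release 29), these copies were identical at 99.1%, 99.4% and 99.6% of positions. The 60 coding bases from 647 to 706, the stretch with the most differences, show how little separates the genes for a sequencing read, with capitals marking bases that differ from HNRNPA1:
HNRNPA1: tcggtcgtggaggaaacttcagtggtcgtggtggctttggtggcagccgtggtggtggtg
HNRNPA1P7: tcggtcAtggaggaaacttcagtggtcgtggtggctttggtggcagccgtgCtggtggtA
HNRNPA1P48: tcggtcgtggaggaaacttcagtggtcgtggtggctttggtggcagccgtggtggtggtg
HNRNPA1P10: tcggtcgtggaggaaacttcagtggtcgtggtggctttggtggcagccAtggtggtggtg
HNRNPA1P7 differed at 3 of these bases, HNRNPA1P10 at 1 and HNRNPA1P48 at 0. Of all windows of 50 coding bases of HNRNPA1, 93.7% occurred unchanged in a transcript of another gene, and of windows of 100 bases 82.2% did. The shares for 50 and 100 bases were 52.7% and 16.7% for HNRNPC, 22.2% and 9.41% for HNRNPL and 28.6% and 0.0% for HNRNPK. They were at most 2.07% and 0.0% for the other 6 genes, HNRNPD and HNRNPDL among them. How the counting treated reads with several matches is not given in the sources used here, so the division of counts between HNRNPA1 and its copies is uncertain.

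The 3 main copies were lower in every CYT library than in every control library. HNRNPA1P7 had 3534, 3467 and 4477 counts in control and 563, 788 and 450 in CYT libraries (log2 fold change -2.46, edgeR adjusted p = 0.00134). HNRNPA1P48 had 3236, 1458 and 1629 counts in control and 214, 437 and 230 in CYT libraries (log2 fold change -2.62, edgeR adjusted p = 0.00286), and HNRNPA1P10 went the same way (-2.33, adjusted p = 0.00156). HNRNPA1 itself did overlap between the groups. With the copies' counts added to HNRNPA1 the sums were 9803, 6682 and 8957 in control and 1350, 2415 and 1046 in CYT libraries. These sums did not overlap, and the log2 fold change of the sum was -2.21 (SE 0.37, edgeR adjusted p = 0.00294). Adding copies changed the call of no other member.

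**Figure D2:**
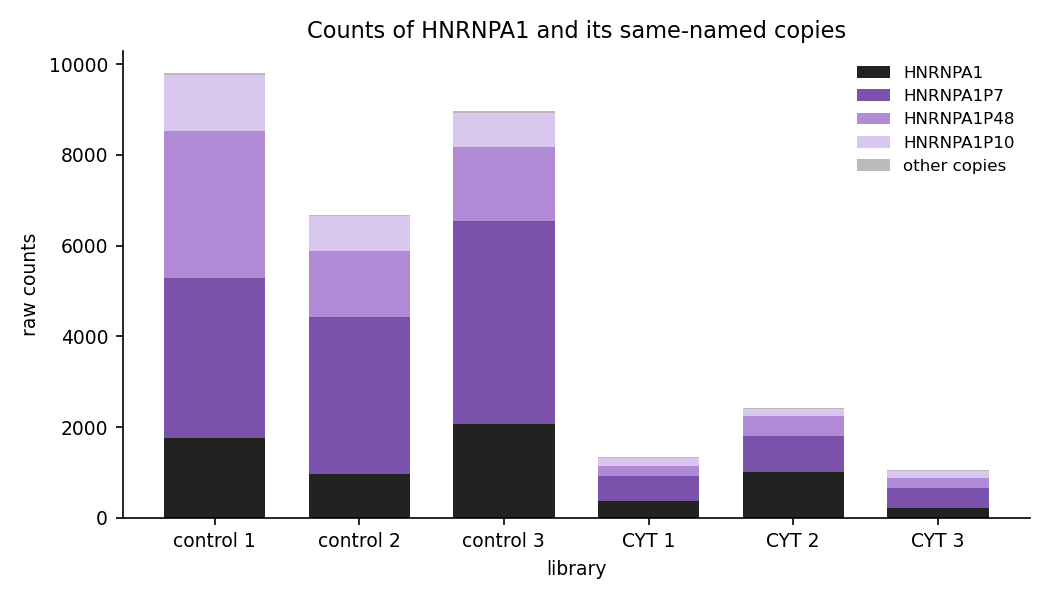
Raw counts per library of HNRNPA1 (black) and of its same-named copies (purple and grey), stacked. The control sums are 6682 to 9803 and the CYT sums 1046 to 2415, and the copies hold more than HNRNPA1 itself in every library, least in CYT replicate 2 (57.8%).

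HNRNPA2B1 has no same-named copy in the table and shared no window of 50 coding bases with another gene. It had 273, 221 and 251 CPM in control and 102, 240 and 98.7 CPM in CYT libraries. CYT replicates 1 and 3 were well below control and CYT replicate 2 was at the control level, and HNRNPA2B1 was not called (log2 fold change -0.76, SE 0.38, edgeR adjusted p = 0.165). Without CYT replicate 2 the log2 fold change was -1.31 (edgeR adjusted p = 0.00377). Within a library the log2 ratio of HNRNPA1 to HNRNPA2B1 counts averaged -1.40 ± 0.68 (SD, n = 3) in control and -2.09 ± 0.44 in CYT libraries, a difference within the spread (exact permutation test, two-sided p = 0.3, adjusted p = 0.6 over the 2 ratios). With the copies added it was 1.07 ± 0.35 in control and -0.27 ± 0.19 in CYT libraries, without overlap (two-sided p = 0.1 in the exact permutation test, its lower limit here).

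HNRNPL binds CA-rich elements in introns and exons and acts as an activator or repressor of splicing by position. It lies at chr19:38836388-38852347 on the minus strand. HNRNPL had 549, 402 and 434 CPM in control and 212, 190 and 246 CPM in CYT libraries. The groups were clearly separate, and the log2 fold change was -1.10 (SE 0.28, edgeR adjusted p = 0.0161), with a mean CYT level of 46.8% of control. The call was lost without control replicate 1 (edgeR adjusted p = 0.06) or without CYT replicate 1 (adjusted p = 0.0638). HNRNPLP2, a copy at chr15:34489002-34490571 identical at 97.4% of aligned positions, had 332 to 593 counts in control and 133 to 174 in CYT libraries (log2 fold change -1.31, edgeR adjusted p = 0.0162, but 0.0693 without control replicate 1 and 0.0504 without CYT replicate 3).

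On TMM-normalized CPM, HNRNPM and HNRNPU were lower in every CYT library than in every control library without passing the test. HNRNPM, a splicing regulator studied in the epithelial-mesenchymal transition of breast cells, lies at chr19:8444767-8489114 on the plus strand. It had 186, 242 and 269 CPM in control and 164, 177 and 172 CPM in CYT libraries (log2 fold change -0.44, SE 0.27, edgeR adjusted p = 0.255). Its CYT libraries lay close together and just below the lowest control library. Scaled by the summed gene counts alone, copies included, CYT replicate 2 of HNRNPM (190 CPM) lay above control replicate 1 (172 CPM), so the groups overlapped. HNRNPU, also called scaffold attachment factor A, binds RNA and chromatin and lies at chr1:244840638-244864560 on the minus strand. It had 217, 202 and 252 CPM in control and 184, 154 and 165 CPM in CYT libraries (log2 fold change -0.42, SE 0.26, edgeR adjusted p = 0.268). The mean CYT level was 73.7% of control for HNRNPM and 75.0% for HNRNPU.

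HNRNPK, HNRNPH1 and HNRNPC overlapped between the groups. HNRNPK, which binds poly(C) tracts in RNA and single-stranded DNA, lies at chr9:83968083-83980616 on the minus strand. It had 417, 306 and 527 CPM in control and 320, 383 and 296 CPM in CYT libraries (log2 fold change -0.32, SE 0.30, edgeR adjusted p = 0.444). Control replicate 2 was lower than CYT replicates 1 and 2, so no order between the groups held in every library. HNRNPH1, which binds G-rich tracts and lies at chr5:179614178-179634784 on the minus strand, had 92.9, 107 and 103 CPM in control and 71.0, 136 and 84.1 CPM in CYT libraries. CYT replicate 2 was the highest and the other CYT libraries the lowest of the 6, and the log2 fold change of -0.056 (SE 0.32, edgeR adjusted p = 0.915) turned to 0.093 under upper-quartile normalization. HNRNPC, which binds uridine tracts and lies at chr14:21209136-21269494 on the minus strand, had 449, 586 and 495 CPM in control and 504, 724 and 546 CPM in CYT libraries. It was the 1 gene of the 10 with a positive log2 fold change (0.21, SE 0.28, edgeR adjusted p = 0.595), and in both groups replicate 2 was the highest library.

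**Figure D3:**
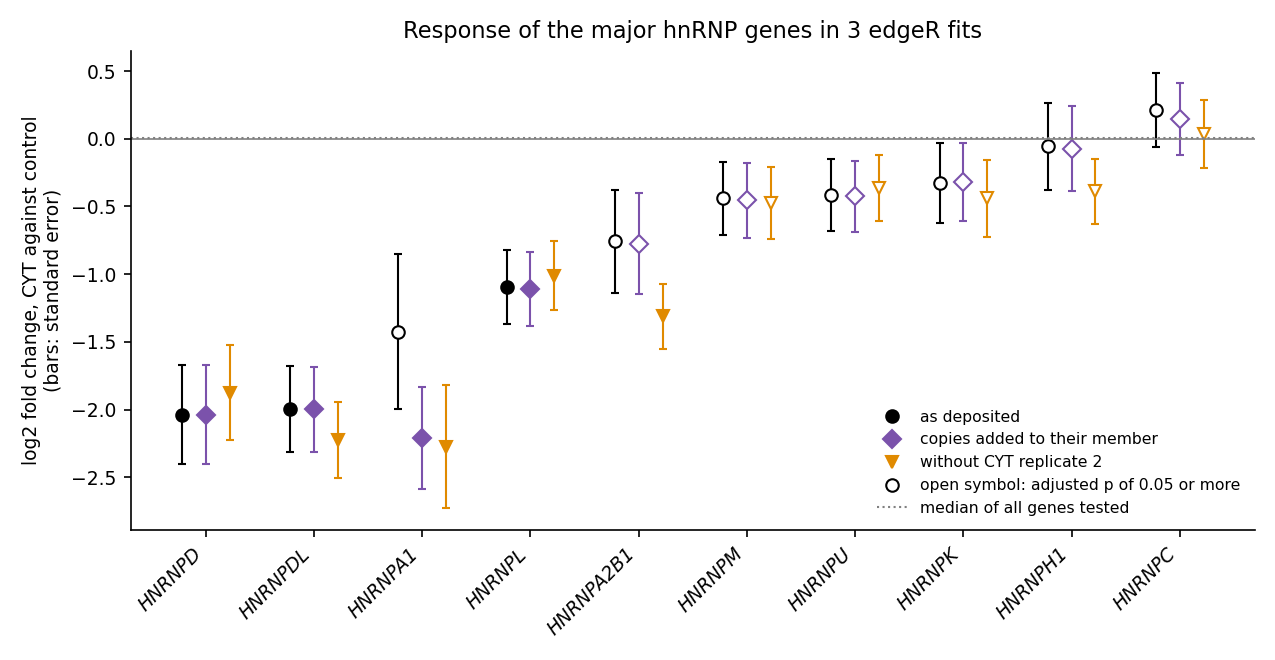
Log2 fold change of CYT against control for each hnRNP gene, with standard error bars, from edgeR on the rows as deposited (circles), with same-named copies added (diamonds) and without CYT replicate 2 (triangles). Filled symbols have an adjusted p under 0.05, and HNRNPA1 is filled with copies added (-2.21) and without CYT replicate 2 (-2.28) but open as deposited (-1.42).

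Levels of different genes were compared as CPM per kilobase of merged exonic length in GENCODE release 29. The deposited FPKM were not used for this purpose, because among 10158 genes whose lowest count was 50 or more, for 9353 (92.1%) the length implied by count and FPKM equalled, within 1 base, the sum of all distinct annotated exons with overlapping exons counted again. For the 10 hnRNP genes this length was from 1.63 times (HNRNPL) to 3.24 times (HNRNPH1) the merged exonic length, so the FPKM lowers the level of genes with many overlapping exons. The length is the same in every library and leaves fold changes of a gene untouched. In control, HNRNPK (81.5 CPM per kilobase), HNRNPC (69.8) and HNRNPL (67.7) were highest, and neighbours among these 3 overlapped in range. Next came HNRNPM (41.3), whose range lay below that of HNRNPL and above that of HNRNPA2B1 (26.8). HNRNPA2B1, HNRNPDL (21.5), HNRNPA1 (20.2, without copies) and HNRNPD (17.6) each overlapped the next in range, and HNRNPD lay above HNRNPH1 (10.6), which overlapped HNRNPU (9.94). After CYT treatment HNRNPC (80.9) and HNRNPK (65.1) were highest and overlapped, and HNRNPK lay above HNRNPL (31.7), which now overlapped HNRNPM (30.5). HNRNPM lay above HNRNPA2B1 (15.8). The remaining genes formed a series in which each overlapped the next, with HNRNPH1 (10.2), HNRNPA1 (7.52) and HNRNPU (7.45) followed by HNRNPDL (5.37) and HNRNPD (4.29) as the lowest. The annotated model of HNRNPA2B1 spans more than its deposited locus, so its level per kilobase is uncertain. Merged exonic length counts every annotated transcript, and for HNRNPU it was 22512 bases against 2418 coding bases. The order of levels, with HNRNPU lowest in control, therefore depends on this length.

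In 7 cases the hnRNP gene shares its start region with a gene that begins on the opposite strand within 1000 bases. Of these 7 neighbours, 2 (BX323046.1 and AC136469.2) passed the filter on low counts only through the CYT libraries and are described without a test. Of the other 5, RMI1 and AC124016.1 were called higher after CYT treatment, against 15.7% of all tested genes, and none was called lower. RMI1, a subunit of the BLM helicase complex that resolves recombination intermediates, starts 95 bases from HNRNPK. It had 129, 323 and 119 counts in control and 460, 1283 and 442 in CYT libraries, and rose with a value of 2.23 on the log2 scale (SE 0.50, edgeR adjusted p = 0.00955) beside the value of -0.32 for HNRNPK. Without CYT replicate 2, its highest library, the value of RMI1 was 1.57, and limma on unfiltered log2(FPKM + 1) did not call it (adjusted p = 0.0736). AC124016.1, annotated as antisense and overlapping the start of HNRNPD, had 16, 68 and 21 counts in control and 203, 155 and 199 in CYT libraries (log2 fold change 2.73, SE 0.50, edgeR adjusted p = 0.00387). Control replicate 2 was the highest control library of AC124016.1, and without it the log2 fold change was 3.44. Both, 2 of the 5 tested neighbours, were higher in every CYT library than in every control library, against 23.4% of all tested genes.

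The neighbours of HNRNPU and HNRNPM had hardly any counts in control. BX323046.1, a long intergenic non-coding RNA that starts 178 bases from HNRNPU, had 0, 2 and 0 counts in control and 46, 65 and 61 in CYT libraries. Relative to the summed gene counts this is a ratio of 104 (95% exact interval 28.4 to 867, counting error only). AC136469.2, which overlaps the start of HNRNPM and awaits experimental evidence in the annotation, had 0, 0 and 2 counts in control and 104, 34 and 101 in CYT libraries (ratio 145, interval 39.6 to 1200). Each ratio rests on 1 control library, since the others had 0 counts of that gene. The 3 tested neighbours that were not called encode chromatin proteins and an enolase-phosphatase. CBX5 beside HNRNPA1 had a log2 fold change of -0.45 (edgeR adjusted p = 0.343), CBX3 beside HNRNPA2B1 one of 0.98 (adjusted p = 0.136, with a log2 fold change of 0.27 without CYT replicate 2) and ENOPH1 beside HNRNPDL one of 0.41 (adjusted p = 0.429). COX20, which overlaps the end of HNRNPU from the opposite strand, had 0.64 (adjusted p = 0.249). Whether the counting used strand is not given in the sources used here, so for AC124016.1, AC136469.2, CBX3 and COX20 the reads that lie within the stretch shared with the hnRNP gene cannot be assigned to either gene with certainty.

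**Figure D4:**
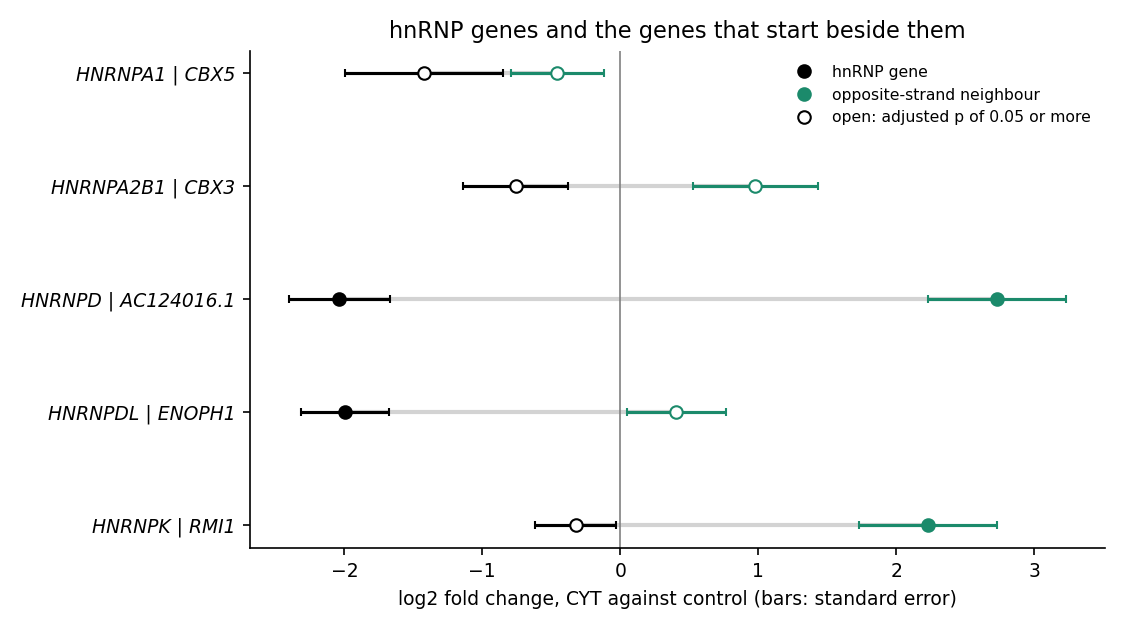
Log2 fold change of CYT against control with standard error bars for 5 hnRNP genes (black) and the gene starting beside each on the opposite strand (green), where filled symbols have an adjusted p under 0.05. AC124016.1 (2.73) and RMI1 (2.23) lie on the other side of 0 from HNRNPD (-2.04) and HNRNPK (-0.32), and the neighbours of HNRNPM and HNRNPU are left out because their control counts were at most 2.

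The shared start regions are shown for HNRNPK, HNRNPU and HNRNPDL, whose RefSeq promoter windows (GRCh38.p14, 250 bases before to 50 after a transcript start) contain the start of the neighbour. Each is given on the minus strand, in the direction of the hnRNP gene, and capitals mark the 11 bases centred on the start of the neighbour in the deposited table.
HNRNPK and RMI1, chr9:83980566-83980865: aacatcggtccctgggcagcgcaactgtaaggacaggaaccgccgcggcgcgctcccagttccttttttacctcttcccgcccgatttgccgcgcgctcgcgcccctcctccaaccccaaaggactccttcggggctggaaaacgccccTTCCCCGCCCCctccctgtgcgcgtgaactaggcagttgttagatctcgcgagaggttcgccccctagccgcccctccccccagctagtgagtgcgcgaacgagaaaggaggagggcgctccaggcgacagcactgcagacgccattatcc
HNRNPU and BX323046.1, chr1:244864494-244864793: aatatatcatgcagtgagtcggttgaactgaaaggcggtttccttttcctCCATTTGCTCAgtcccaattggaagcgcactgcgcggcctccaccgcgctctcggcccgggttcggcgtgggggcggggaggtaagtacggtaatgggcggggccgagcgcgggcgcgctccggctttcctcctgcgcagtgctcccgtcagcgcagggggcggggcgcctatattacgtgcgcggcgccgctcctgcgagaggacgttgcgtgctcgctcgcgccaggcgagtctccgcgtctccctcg
HNRNPDL and ENOPH1, chr4:82430413-82430712: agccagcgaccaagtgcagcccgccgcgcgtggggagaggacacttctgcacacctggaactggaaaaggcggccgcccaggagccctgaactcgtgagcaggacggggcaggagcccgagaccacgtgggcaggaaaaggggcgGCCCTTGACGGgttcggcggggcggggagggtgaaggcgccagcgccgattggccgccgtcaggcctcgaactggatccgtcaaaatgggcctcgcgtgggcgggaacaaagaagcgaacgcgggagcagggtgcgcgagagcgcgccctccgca
These windows are rich in CpG dinucleotides, with 29, 40 and 34 of them in 300 bases. The set of RefSeq windows used here held 15 for 9 of the 10 genes and lacked HNRNPA1. These 15 had a median of 30 CpG and 66.0% GC against 14 and 58.7% over all 35116 windows. HNRNPD, which fell, and HNRNPC, which was not called, were the genes with TATAAA on either strand (2 of 15 windows, against 11.5% of all windows). CCAAT was found in 8 windows (34.6% of all) and GGGCGG in 9 (45% of all), the latter in windows of both called and uncalled genes. CCGGAAG was found in 1 window (10.3% of all), and AAGATGGCG (1.75% of all) was found in none. A match of letters is a description of the window and not a binding site.

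Among 22 further hnRNP genes, 20 were tested, of which 8 were called lower and none higher, against 12.9% of all tested genes called lower. Their median log2 fold change was -0.77, 19 of the 20 were negative (18 under upper-quartile normalization, which called 6 of them lower against 10.4% of all tested genes), and 10 had every CYT library below every control library, against 22.7% of all tested genes. PTBP1, the polypyrimidine tract binding protein and a repressor of exons, had 314, 440 and 302 CPM in control and 86.6, 66.0 and 126 CPM in CYT libraries (log2 fold change -1.92, edgeR adjusted p = 0.00325). PCBP2 and PCBP1, poly(C)-binding proteins with KH domains like HNRNPK, fell with log2 fold changes of -1.65 (edgeR adjusted p = 0.00341) and -1.07 (adjusted p = 0.0188). HNRNPR and SYNCRIP, closely related to each other, followed with -1.94 (edgeR adjusted p = 0.0109) and -1.49 (adjusted p = 0.00447), and RBMX, which encodes hnRNP G, with -0.95 (adjusted p = 0.0312). The call of PCBP1 was lost without control replicate 1, control replicate 3 or CYT replicate 3 (edgeR adjusted p from 0.0606 to 0.0641), and that of RBMX without any 1 library other than CYT replicate 2 (0.0601 to 0.121), under upper-quartile normalization (0.0596) and with limma on unfiltered log2(FPKM + 1) (0.0569). Without CYT replicate 2 the log2 fold change of HNRNPR was -2.56.

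HNRNPA3, another A/B-type protein, had 93.6, 23.2 and 126 CPM in control and 13.96, 15.1 and 12.2 CPM in CYT libraries (log2 fold change -2.56, edgeR adjusted p = 0.00763, but 0.0923 from limma on unfiltered log2(FPKM + 1)). Control replicate 2 was its lowest control library, as it was for HNRNPA1, and the same library held 6 counts of the copy HNRNPA3P6 against 730 and 778 in the other control libraries. Summed with this copy and scaled by the summed gene counts alone, HNRNPA3 had 129, 24.9 and 180 CPM in control and 23.1, 29.6 and 20.8 CPM in CYT libraries, so that control replicate 2 lay below CYT replicate 2 and the groups overlapped. HNRNPUL2, a relative of HNRNPU, fell with a log2 fold change of -1.78 (edgeR adjusted p = 0.0386), with the call lost without any 1 library other than CYT replicate 1 (0.0526 to 0.123), without which the log2 fold change was -2.80. This call was also lost under upper-quartile normalization (edgeR adjusted p = 0.0515), among genes averaging 5 CPM or more (0.0533) and with limma on unfiltered log2(FPKM + 1) (0.0783). The overlapping readthrough gene HNRNPUL2-BSCL2 had 84, 0 and 78 counts in control and 3, 628 and 684 in CYT libraries. Summed, they had 2617, 1760 and 1693 counts in control and 1022, 874 and 907 in CYT libraries, without overlap. The log2 ratio of the group means, scaled by the summed gene counts alone, was -1.74 for HNRNPUL2 and -0.84 for the sum, which was not tested. HNRNPA3P6 and HNRNPUL2-BSCL2 were named after their values were seen. HNRNPCL1 and RALYL had 0 counts in every library. Of 4 genes that import or methylate hnRNP proteins (TNPO1, TNPO2, PRMT1 and PRMT5), none was called by edgeR or DESeq2, against 28.6% and 33.9% of all tested genes called in either direction, and 1 had an unadjusted p under 0.05 by each tool, against 40.9% and 42.4%. This was PRMT5, a symmetric arginine methyltransferase (log2 fold change -0.92, edgeR adjusted p = 0.0718, but 0.0148 with the replicate number as a block and 0.0458 without control replicate 2). TNPO2, a nuclear import receptor, had a log2 fold change of 0.58 (edgeR adjusted p = 0.2, but 0.0455 without CYT replicate 2).

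**Figure D5:**
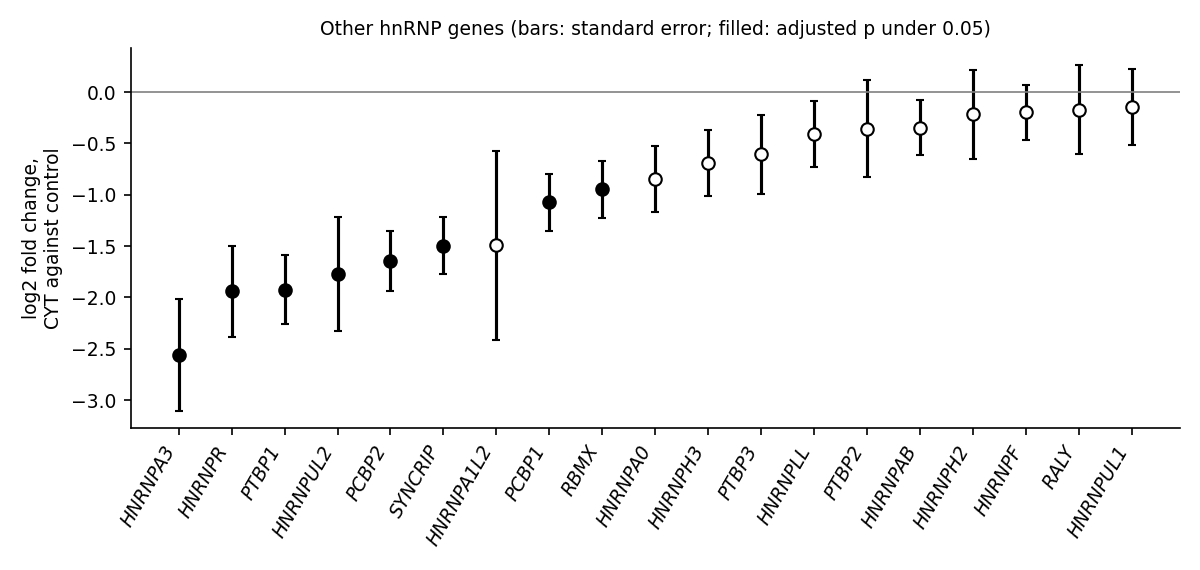
Log2 fold change of CYT against control for 19 of the 20 tested genes of the further hnRNP list, with standard error bars and filled symbols for an adjusted p under 0.05. The 8 filled genes lie between -2.56 (HNRNPA3) and -0.95 (RBMX).

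For each hnRNP gene, the gene with the most similar profile was the one with the smallest Euclidean distance between mean-centred log2 CPM over the 6 libraries, among 5362 candidates. HNRNPC had the smallest distance, 0.0818, to RTF1, a transcription elongation factor associated with the PAF1 complex. Their Pearson correlation was 0.99, beside 0.992 for HNRNPL and 0.991 for HNRNPD and HNRNPDL with their nearest genes. HNRNPU was nearest to RPL7L1 (0.163), HNRNPH1 to HMGN1 (0.181), HNRNPM to RPL6P27 (0.216) and HNRNPL to TBC1D8 (0.226). HNRNPK was nearest to APOBEC3B (0.279), HNRNPA2B1 to BMS1 (0.304), HNRNPDL to PWP1 (0.336) and HNRNPD to ATF4 (0.373), the transcription factor of the integrated stress response. HNRNPA1 had the largest distance (VANGL1, 1.16), with a correlation of 0.918 beside 0.922 for HNRNPK with APOBEC3B. The profiles were not scaled, so a distance also grows with the spread of the gene's own values. The points of these profiles share their libraries and depth, and the distances are descriptions.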

How the data were processed

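RNA sequencing libraries of 3 control and 3 CYT-treated MDA-MB-231-DR samples were grouped by their labels. The authors aligned clean reads with Hisat2 and deposited raw counts per gene on hg38. The submitters' processing notes name FastQC 0.12.1, and the counting program and annotation are not given in the sources used here. The authors also deposited FPKM values, for which the methods name Stringtie.

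Counts were tested with edgeR 4.0.16 in R 4.3.3 (TMM, filterByExpr with a minimum count of 10, quasi-likelihood test, Benjamini-Hochberg adjustment over 15572 genes). The SE of a fit was the absolute log2 fold change over the root of F. Single values were tested with exact permutation tests in scipy 1.17.1. CPM values are TMM-normalized. Only fits with edgeR, DESeq2 and limma were checked on simulated counts, which held fewer changed genes than were called here.

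The members, gene lists and rules were chosen with earlier results of these data known. The genes named were the 10 members, 22 further hnRNP genes, 4 import or methylation genes, overlapping genes and opposite-strand starts within 1000 bases, same-named pseudogenes, and the nearest profile of each member among genes with a mean log2 CPM of at least 5. The further hnRNP genes were counted in full, but 1 of them is not reported here by name. Alternatives were DESeq2 1.42.0, upper-quartile, RLE and no scaling factors, all genes with a count, genes averaging 5 CPM or more, a replicate block, limma 3.58.1 with FPKM + 1 (also unfiltered) or FPKM + 0.1 on the log2 scale, copies added, and each library left out in turn. Copies added together with the block or without CYT replicate 2 were chosen after seeing the data.

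Deviations from the group mean correlated at 0.237, 0.51 and 0.137 between same-numbered libraries. However, control 1 with CYT 3 reached 0.358 and control 3 with CYT 1 reached 0.223. A pairing would rest on the label numbers alone, so the main test used the group only and the replicate block was an alternative. No pair of replicates agreed within sampling noise (chi-square per gene of 25.0 or more).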

Additional observations from a re-analysis of the deposited data

How the results depend on the processing

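Over 19 alternatives for each of the 10 hnRNP genes, 176 of 190 values kept their direction and side of the threshold. HNRNPD (log2 fold change from -2.39 to -1.66) and HNRNPDL (from -2.23 to -1.63) were called in all 19, and no alternative called any of the 10 genes higher. HNRNPA1 was called with DESeq2 (-1.40, adjusted p = 0.0343), without a filter in edgeR (-1.52, adjusted p = 0.0309) and with copies added (-2.21), also with the replicate block (-2.25) or without CYT replicate 2 (-2.59). Leaving out 1 library gave -2.28 to -1.05 for HNRNPA1, -1.31 to -0.53 for HNRNPA2B1 (-1.31 also with copies added and without CYT replicate 2), -1.20 to -0.97 for HNRNPL and -0.39 to 0.12 for HNRNPH1, which was also positive under upper-quartile normalization (0.093) and among genes averaging 5 CPM or more (0.045). The number of these genes called, all lower, ran from 2 to 5 without 1 library. It was 2 without control replicate 1 (1215 of all 16394 tested genes called lower) and without CYT replicate 1 (1362 of 16064). It was 5 without CYT replicate 2 (2750 of 16146), and also with copies added and without CYT replicate 2 (2746 of 16138). Without 1 library the log2 ratio of HNRNPD to HNRNPDL differed by -0.35 to 0.32 and HNRNPCP2 by -0.75 to 0.17. The count of all genes called was 2859 of 11420 tested for genes averaging 5 CPM or more, against 4451 of 15572. Without 1 library it ran from 2891 of 16412 to 5752 of 16146, and the causes were not tested. Upper-quartile factors moved the median of all genes to 0.16 and the calls from 2002 lower and 2449 higher to 1624 and 2879, with a median of -0.45 for the 10 genes. The replicate block called 6209 genes and the same number of the 10 genes (3), with adjusted p = 0.0661 for HNRNPA1 and 0.0636 for HNRNPA2B1 from edgeR. It changed the call of no hnRNP gene among the 10, but called HNRNPA0 (adjusted p = 0.0298) and PRMT5 (adjusted p = 0.0148). With 3 libraries against 3, exact tests of single values cannot reach 0.05.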
